A study of Mus musculus with 3 samples.

Results

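The core circadian clock genes are the 10 genes Arntl, Clock, Per1, Per2, Per3, Cry1, Cry2, Nr1d1, Nr1d2 and Dbp, taken by symbol from tables of 21881 gene rows per age. All 10 were found, each as a row of its own, and all 10 reached 1 FPKM (fragments scaled to transcript length and library size) at 1 or more ages, as did 14662 genes in all. The RNA was from whole skin of FVB mice, an albino inbred strain, headed as wild type in the tables. The ages were E18.5 (embryos shortly before birth), P3 (newborn pups, 3 days after birth) and 10 weeks (adults). The design text names 2 biological replicates per age, while each table used here gives 1 averaged FPKM per gene. Single-replicate values and read depth are therefore unknown here, so that no SD, interval or p-value stands beside any value and no difference has a replicate check. The sources used here do not give the hour of sampling, the lighting schedule, the sex of the mice, the stage of the hair cycle or the number of animals per replicate. Their part in any difference below was not tested.

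The mammalian clock is a loop of transcription and repression that runs in nearly every cell. The proteins of Arntl (also called BMAL1) and Clock pair up and switch on genes through a DNA element called the E-box. Among those genes are the Per and Cry genes, whose proteins gather and shut the pair off, and Nr1d1 and Nr1d2, which encode the nuclear receptors REV-ERBα and REV-ERBβ. REV-ERB proteins repress Arntl and, with weaker effect, Clock and Cry1, at sites where the activating ROR receptors also bind. Dbp is an output gene under direct E-box control. Its protein binds another element, the D-box, together with the related factors TEF and HLF and in competition with the repressor NFIL3. Through the day, the level of Arntl RNA runs roughly opposite to that of Nr1d1 and Dbp in peripheral mouse tissues, and skin holds such a clock in its epidermis, hair follicles and dermis. For this reason a single time point gives the state of the loop at 1 unknown phase, not its amplitude. Each value here averages replicates whose hours are not given, and so may mix phases. Nor can hour and age be told apart in the differences below.

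Start-site windows of 9 of the 10 genes, all but Per2, were read from RefSeq (build GRCm38.p6, 250 bases before to 50 after the annotated start), and were searched on both strands for 4 elements. These were the E-box CACGTG, the D-box TTANGTAA, the ROR and REV-ERB half-site AGGTCA, and the cAMP response element TGACGTCA. The E-box letters stood in 7.15% of all 32851 such windows, the D-box in 2.32%, the half-site in 16.3% and the cAMP element in 1.79%. A window with 2 or more D-boxes was rare, at 0.198%. The stretches below are shown because they hold a match beside the start of a clock gene, with the matched letters in capitals (TGACCT is the half-site on the other strand). They are written on the strand of the gene.
Per3, chr4:151044790-151044896, minus strand: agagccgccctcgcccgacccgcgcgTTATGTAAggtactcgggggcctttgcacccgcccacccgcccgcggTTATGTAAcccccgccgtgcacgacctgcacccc
Per1, chr11:69098757-69098843, plus strand: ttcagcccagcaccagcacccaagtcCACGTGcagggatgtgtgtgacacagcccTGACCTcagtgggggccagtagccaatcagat
Cry1, chr10:85185083-85185140, minus strand: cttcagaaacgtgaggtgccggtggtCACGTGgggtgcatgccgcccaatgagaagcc
Nr1d2, chr14:18239152-18239209, minus strand: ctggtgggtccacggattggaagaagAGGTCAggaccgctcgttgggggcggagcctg
Arntl, chr7:113207531-113207558, plus strand: aggcagaaagtAGGTCAgggacggaggt

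Per3 held a pair of D-boxes, whose first bases lay 205 and 158 bases before its start. Per1 held an E-box 166 bases before the more upstream of its annotated starts, with a half-site 137 bases before it, and Cry1 an E-box 60 bases before its start. Half-sites also stood 77 bases before the start of Nr1d2, 119 bases before 1 of the annotated starts of Clock, and 31 bases past 1 of the annotated starts of Arntl. No 2 matches overlapped. The cAMP element was found in none of the 9 genes, and Cry2, Nr1d1 and Dbp held none of the 4 sets of letters in this window. These matches describe letters near a start and are not evidence of binding.

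**Figure D1:**
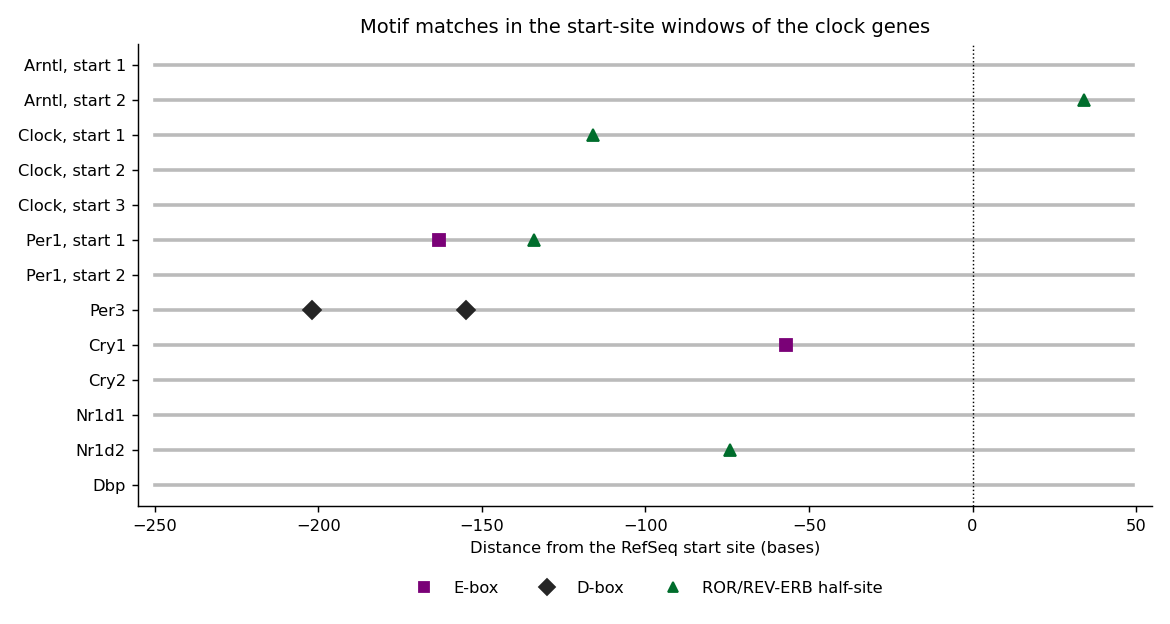
Each grey line is 1 RefSeq start-site window of a clock gene, drawn by distance in bases from the start site (dotted line), with several lines where a gene has several annotated starts. Squares are E-boxes, diamonds D-boxes and triangles ROR and REV-ERB half-sites; the 2 diamonds of Per3 lie upstream of its start.

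No clock gene differed by 2-fold between E18.5 and P3, and at 10 weeks Nr1d1, Nr1d2, Dbp, Per2 and Per3 were higher and Cry1 lower than at P3. The difference between ages was measured as log2 of (FPKM + 1) at the later age minus the same at the earlier age, and a gene is called higher or lower where this was at least 1 or at most -1, that is 2-fold on a scale that understates changes of low genes. By this rule 0 of the 10 genes were higher at P3 against E18.5, and 0 were lower, where 9.56% of 14653 genes compared were higher and 9.42% lower. Between 10 weeks and P3, 5 of 10 were higher in the adult, against 19.8% of all 14655 genes, and 1 of 10 was lower, against 9.98%. Between 10 weeks and E18.5, 4 of 10 were higher, against 16.1% of 14659 genes, and 0 were lower, against 6.92%. The median log2 difference of the 10 genes was 0.25 for P3 over E18.5 (all genes 0.03), 1.00 for 10 weeks over P3 (all genes 0.14) and 0.81 for 10 weeks over E18.5 (all genes 0.22). The 3 comparisons share their ages, so that a value in error would enter 2 of them. Other scalings of the libraries moved the median of all genes by up to 0.26. The calls of Nr1d1, Nr1d2, Dbp and Per3 were kept with pseudocounts of 0.1 and 5 and under 3 other scalings.

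**Figure D2:**
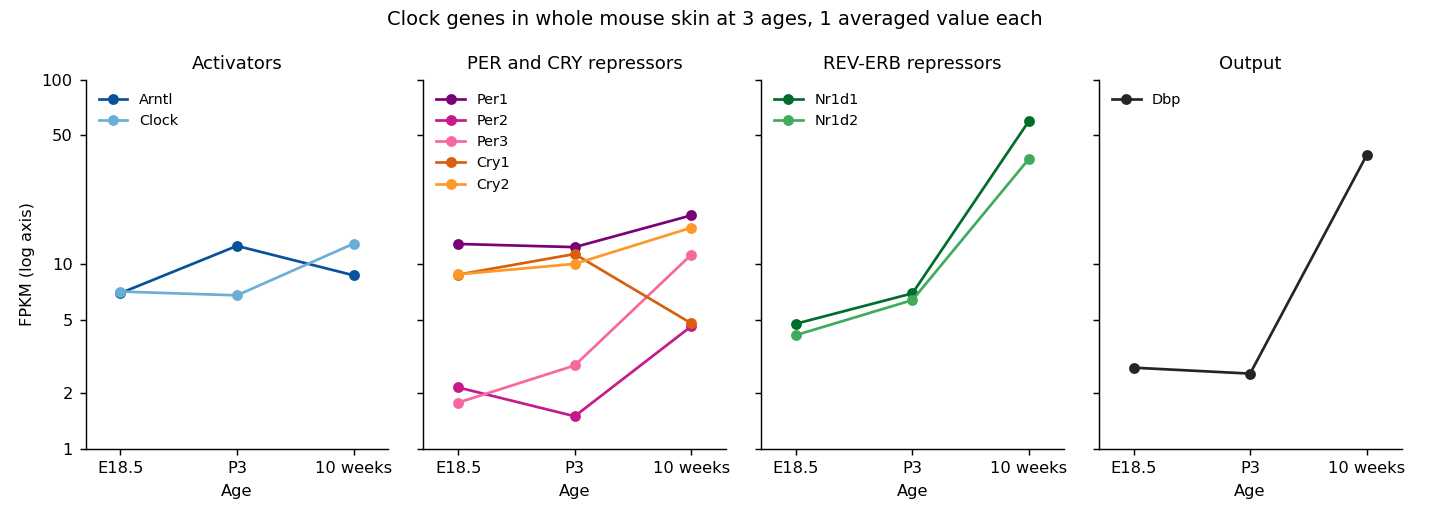
FPKM of the 10 clock genes (log axis) at E18.5, P3 and 10 weeks, in a panel for each role; each point is 1 averaged value, so there are no error bars. Nr1d1, Nr1d2 and Dbp lie between 2.56 and 6.96 FPKM at the earlier ages and between 37.3 and 59.7 FPKM at 10 weeks, whereas Arntl and Clock stay between 6.79 and 12.9 FPKM.

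The activators Arntl and Clock were called at no step. Arntl (mm9 chromosome 7, 120350979 to 120457636), the only activator whose loss alone stops the clock in mice, was at 6.98 FPKM at E18.5, 12.6 FPKM at P3 and 8.71 FPKM at 10 weeks. It was highest at P3, and neither step reached 2-fold, with log2 differences of 0.77 for P3 over E18.5 and -0.48 for 10 weeks over P3. Clock (chromosome 5, 76641202 to 76733573), its DNA-binding partner, was at 7.11, 6.79 and 12.9 FPKM. Its highest value was that of the adult, with a log2 difference of 0.84 over P3, so that the partners did not follow the same course. The FPKM ratio of Clock to Arntl was 1.02 in the embryo, 0.539 at P3 and 1.48 in the adult. Npas2, which can stand in for Clock, was close to the minimum of 1 FPKM used here, at 0.887, 0.817 and 1.02 FPKM. Arntl2, the paralogue of Arntl, was at 0.115, 0.285 and 1.76 FPKM, and was called higher at 10 weeks than at P3, a call lost with a pseudocount of 5 (0.36) and with median-of-ratios scaling (0.98).

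Nr1d1 led the 10 genes in the adult, and both REV-ERB genes were far lower at the earlier ages. Nr1d1 (chromosome 11, 98629249 to 98636556) was at 4.76 FPKM at E18.5, 6.96 FPKM at P3 and 59.7 FPKM at 10 weeks. The adult value thus stood apart from both earlier ones, at 8.59 times the FPKM of P3 and 12.5 times that of E18.5. Only 3.29% of all genes had a larger log2 difference for 10 weeks over P3 than its 2.93. Nr1d2 (chromosome 14, 19036570 to 19071620), with the half-site shown above, took the same course at 4.13, 6.39 and 37.3 FPKM. Its log2 difference was 2.37 for 10 weeks over P3 and 2.90 for 10 weeks over E18.5. The pair stayed close to each other, with an FPKM ratio of Nr1d1 to Nr1d2 of 1.15 in the embryo, 1.09 at P3 and 1.60 in the adult.

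Dbp (chromosome 7, 52960617 to 52973372) had the largest difference of the 10. It was at 2.75 FPKM at E18.5, 2.56 FPKM at P3 and 38.9 FPKM at 10 weeks. Both early values were low and alike, and the adult FPKM was 15.2 times that of P3 and 14.2 times that of E18.5. The log2 difference for 10 weeks over P3 was 3.49, exceeded by 1.99% of all genes. Tef, of the same family of D-box activators, was at 10.5, 15.2 and 50.5 FPKM, and Hlf at 1.77, 1.40 and 6.21 FPKM, both called higher at 10 weeks than at either earlier age, Hlf not with a pseudocount of 5 (0.81 over P3 and 0.73 over E18.5). Nfil3, the repressor at the same element, was lowest in the adult, at 13.2, 17.6 and 8.80 FPKM. Its log2 difference of -0.92 for 10 weeks over P3 missed 2-fold, and passed it with median-of-ratios (-1.14) and equal-sum scaling (-1.02). The summed FPKM of Dbp, Tef and Hlf was 1.14 times that of Nfil3 in the embryo, 1.09 times at P3 and 10.9 times in the adult.

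Of the Per genes, which encode the PERIOD repressors, Per3 differed most. Per3 (chromosome 4, 150377764 to 150418731), the gene with the pair of D-boxes shown above, was at 1.78 FPKM at E18.5, 2.83 FPKM at P3 and 11.3 FPKM at 10 weeks. It was called higher in the adult than at either earlier age, with log2 differences of 1.68 over P3 and 2.14 over E18.5. Per2 (chromosome 1, 93312559 to 93355905), a PERIOD gene that the clock in mice depends on, was at 2.15, 1.50 and 4.61 FPKM. It was the lowest of the 10 genes at P3 and at 10 weeks. Its log2 difference of 1.17 for 10 weeks over P3 passed 2-fold, but not with a pseudocount of 5 (0.56) or median-of-ratios scaling (0.99). Over E18.5 the adult FPKM was 2.14 times as high, which on the scale with the added 1 gave 0.83 and no call. Per1 (chromosome 11, 68912458 to 68923459), which light, glucocorticoid and cAMP signals also induce, was at 12.9, 12.4 and 18.4 FPKM. Its adult value was the highest, at a log2 difference of 0.54 over P3, and no step was called. The E18.5 value of Per1 bore a mark of failed estimation in the deposited table, as 1 of 24 values above 0 that did so at this age.

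The cryptochrome genes, whose proteins are the strongest repressors of the Arntl and Clock pair, parted in the adult. Cry1 (chromosome 10, 84594445 to 84647799), with the E-box shown above, was at 8.79 FPKM at E18.5, 11.4 FPKM at P3 and 4.79 FPKM at 10 weeks. It was the only one of the 10 genes called lower at 10 weeks than at P3, at a log2 difference of -1.10, a call lost with a pseudocount of 5 (-0.74). Cry2 (chromosome 2, 92243804 to 92274226) was at 8.82, 10.0 and 15.8 FPKM, its highest value being the adult one, with a log2 difference of 0.60 over P3 and no call. The 2 genes were nearly equal at E18.5, with an FPKM ratio of Cry2 to Cry1 of 1.00, and this ratio was 0.884 at P3 and 3.30 at 10 weeks.

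**Figure D3:**
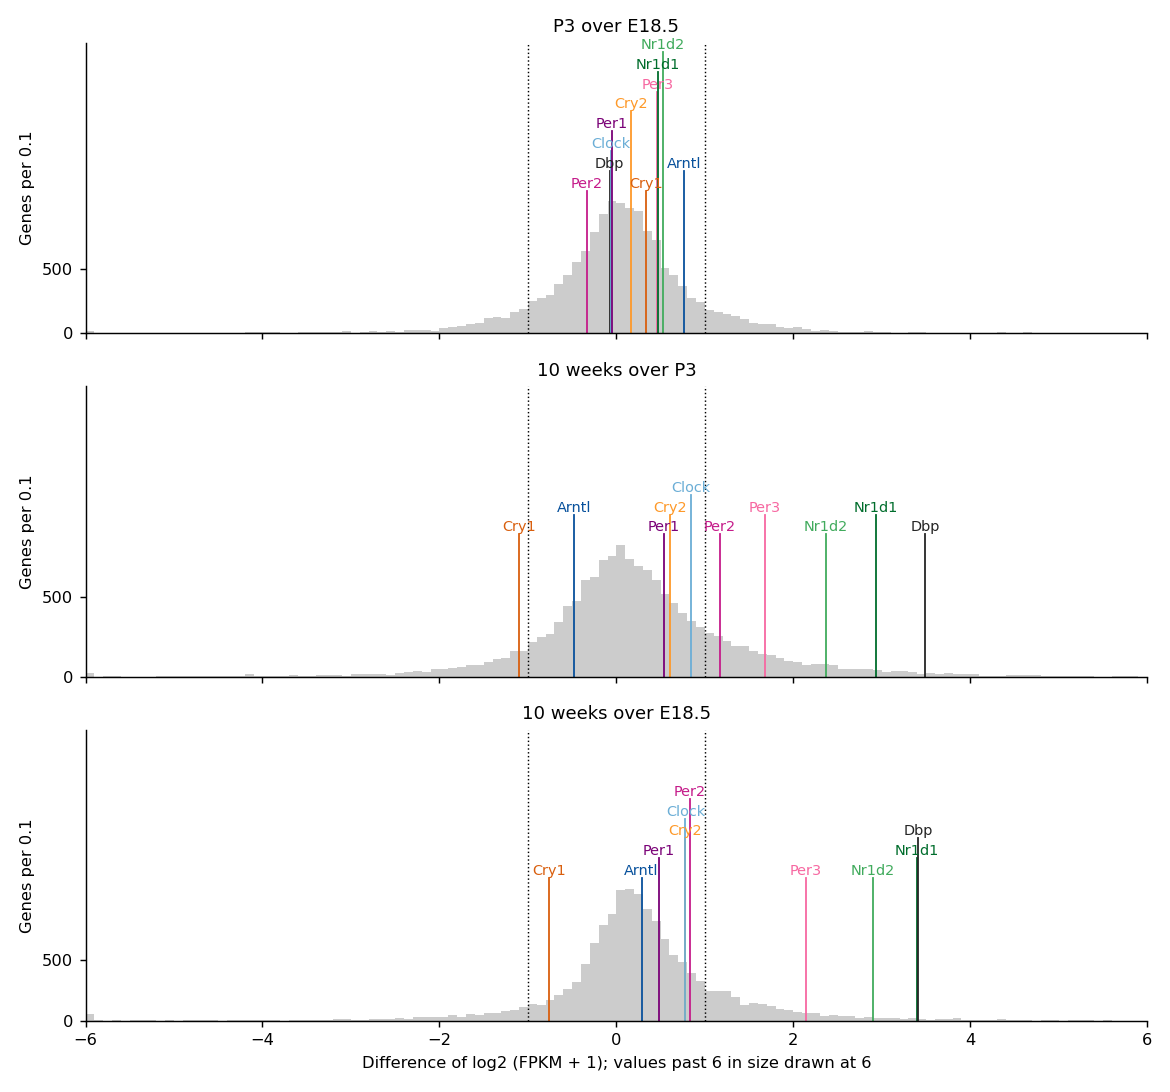
Distribution of the log2 difference over all genes compared (grey, genes per bin of 0.1) with the 10 clock genes as labelled lines, for P3 over E18.5, 10 weeks over P3 and 10 weeks over E18.5; dotted lines mark the 2-fold threshold. In the top panel all 10 lie inside the threshold, and in both lower panels Dbp, Nr1d1, Nr1d2 and Per3 lie beyond it on the right. In the middle panel Per2 (1.17) also lies beyond it on the right, and Cry1 (-1.10) beyond it on the left.

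Set side by side, the activators had the higher mean at E18.5 and P3, and the REV-ERB genes and Dbp at 10 weeks, whereas the mean of the Per and Cry genes was below that of the activators at each age. The mean log2 (FPKM + 1) of Arntl and Clock was 3.01 in the embryo, 3.36 at P3 and 3.54 in the adult. That of Nr1d1 and Nr1d2 was 2.44, 2.94 and 5.59, that of the 5 Per and Cry genes 2.70, 2.82 and 3.40, and that of Dbp 1.91, 1.83 and 5.32. All 7 repressors together averaged 2.63, 2.85 and 4.02. The E18.5 means that include Per1 rest in part on its value marked as a failed estimate. The activators minus all 7 repressors gave 0.38, 0.51 and -0.48, a change of sign that the Per and Cry genes alone did not show. Against Dbp the difference was 1.10 in the embryo, 1.53 at P3 and -1.78 in the adult. Against the repressors and Dbp together it was 0.47, 0.64 and -0.65.

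A ratio within 1 age does not depend on how the libraries were scaled to each other. The FPKM ratio of Dbp to Arntl was 0.394 in the embryo, 0.203 at P3 and 4.47 in the adult, and that of Nr1d1 to Arntl 0.682, 0.553 and 6.85. Both ratios were below 1 at the earlier ages and above 1 in the adult, and the ratio of Nr1d2 to Arntl (0.592, 0.508 and 4.27) took the same course. The ratio of Per3 to Arntl was 0.255, 0.225 and 1.29, and that of Cry1 to Arntl was 1.26, 0.904 and 0.549. Cry1 was the only one of the other 9 genes whose level relative to Arntl was lower at 10 weeks than at P3. In the order of levels, Per1 (12.9 FPKM) led at E18.5, Arntl (12.6 FPKM) at P3, just above Per1 (12.4 FPKM), and Nr1d1 (59.7 FPKM) at 10 weeks, followed by Dbp (38.9 FPKM) and Nr1d2 (37.3 FPKM). The lead of Per1 at E18.5 rests on its value marked as a failed estimate. Without replicate values it cannot be said which neighbours in this order differ beyond their spread.

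**Figure D4:**
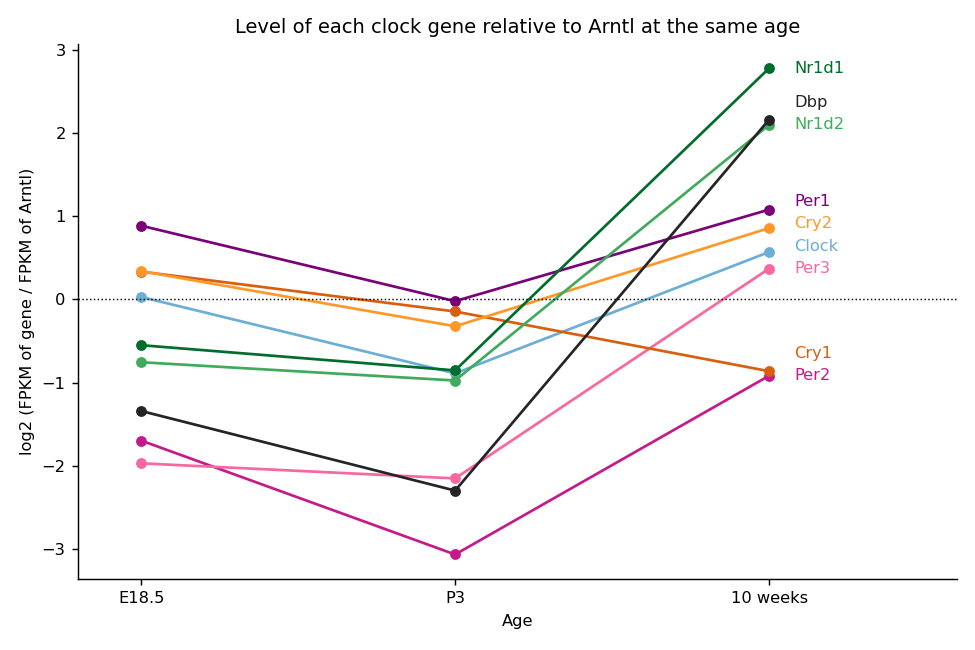
log2 of the FPKM of each clock gene over the FPKM of Arntl at the same age, at E18.5, P3 and 10 weeks; the dotted line at 0 is a level equal to that of Arntl. At 10 weeks Nr1d1 lies at 2.78 and Dbp at 2.16, with Nr1d2 close to Dbp, and all 3 lie below 0 at the earlier ages, while Cry1 lies below the line at -0.86 at 10 weeks.

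A list of 29 further clock genes, chosen by role, was set beside the 10. Of these, 27 reached 1 FPKM at 1 or more ages, and Rorb and Fbxl21 did not. For P3 over E18.5, 6 of 27 were higher and 2 lower (median 0.39), against 9.56% and 9.42% of all genes (median 0.03). For 10 weeks over P3, 6 were higher and 4 lower (median -0.07), against 19.8% and 9.98% of all genes (median 0.14). For 10 weeks over E18.5, 6 were higher and 0 lower (median 0.33), against 16.1% and 6.92% of all genes (median 0.22). With a pseudocount of 5 the higher counts were 3, 2 and 2.

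Among the ROR receptors, which activate where REV-ERB proteins repress, Rora was at 10.8 FPKM at E18.5, 38.2 FPKM at P3 and 20.9 FPKM at 10 weeks. Rora was highest at P3, with a log2 difference of 1.73 over E18.5. Arntl was also highest at P3, and any link between the courses of these genes was not tested. The log2 difference of Rora for 10 weeks over P3 was -0.84, and passed 2-fold with median-of-ratios scaling (-1.07).

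Of 4 further repressors, Bhlhe41 (also DEC2), which competes at E-boxes, was at 1.36, 2.57 and 12.1 FPKM and was called higher at 10 weeks than at P3 (log2 difference 1.88). Its relative Bhlhe40 (DEC1) was at 16.4, 23.4 and 31.0 FPKM and passed no threshold. Ciart (listed as Gm129), a repressor of the Arntl and Clock pair, was at 2.32, 2.50 and 4.19 FPKM, also without a call. Timeless, in mammals mainly a replication fork protein, was at 7.01, 8.89 and 4.47 FPKM. Its log2 difference for 10 weeks over P3 was -0.85, and passed 2-fold with median-of-ratios scaling (-1.05).

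The kinases, ubiquitin ligases and a deubiquitinase that act on the stability of clock proteins were listed together. Of 11 compared, 4 were called higher at P3 against E18.5 (median 0.61), against 9.56% of all genes. At 10 weeks 3 were called lower than at P3 (median -0.35), against 9.98% of all genes. Csnk1e, a casein kinase that phosphorylates PER proteins, was at 22.6, 48.3 and 19.0 FPKM. Csnk2a2, a catalytic subunit of casein kinase 2, was at 18.9, 60.2 and 16.3 FPKM, and the regulatory subunit Csnk2b at 94.2, 206 and 87.0 FPKM. All 3 were highest at P3; with upper-quartile scaling the calls of Csnk1e (0.85) and Csnk2b (0.91) over E18.5 were lost, that of Csnk1e also with a pseudocount of 5 (0.95). Usp2, a deubiquitinase and a rhythmic output in many tissues, was at 6.07, 15.9 and 13.5 FPKM, with a log2 difference of 1.25 for P3 over E18.5 (0.91 with a pseudocount of 5). Csnk1d, Csnk1a1, Csnk2a1, Gsk3b, Btrc and Fbxw11 passed no threshold. The FPKM of Gsk3b at P3 was 2.01 times that at E18.5, which on the scale with the added 1 gave 0.95 and no call.

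Of 5 listed outputs other than Dbp, 1 was higher and 1 lower at 10 weeks than at P3, against 19.8% and 9.98% of all genes. Wee1, a cell cycle kinase under E-box control in mouse liver, was at 10.0, 9.53 and 9.03 FPKM. Noct (listed as Ccrn4l), the rhythmic phosphatase nocturnin, was at 4.91, 11.1 and 4.47 FPKM, highest at P3. Nampt, the rate-limiting enzyme of NAD salvage, was at 27.8, 12.4 and 28.7 FPKM, and Alas1, the first enzyme of haem synthesis, at 40.2, 19.4 and 28.4 FPKM, both lowest at P3. With a pseudocount of 5 no call of Nampt, Alas1 or Noct was kept, their values lying between -0.92 and 0.96. Por, the electron donor of cytochrome P450 enzymes, was at 31.4, 35.8 and 48.3 FPKM.

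**Figure D5:**
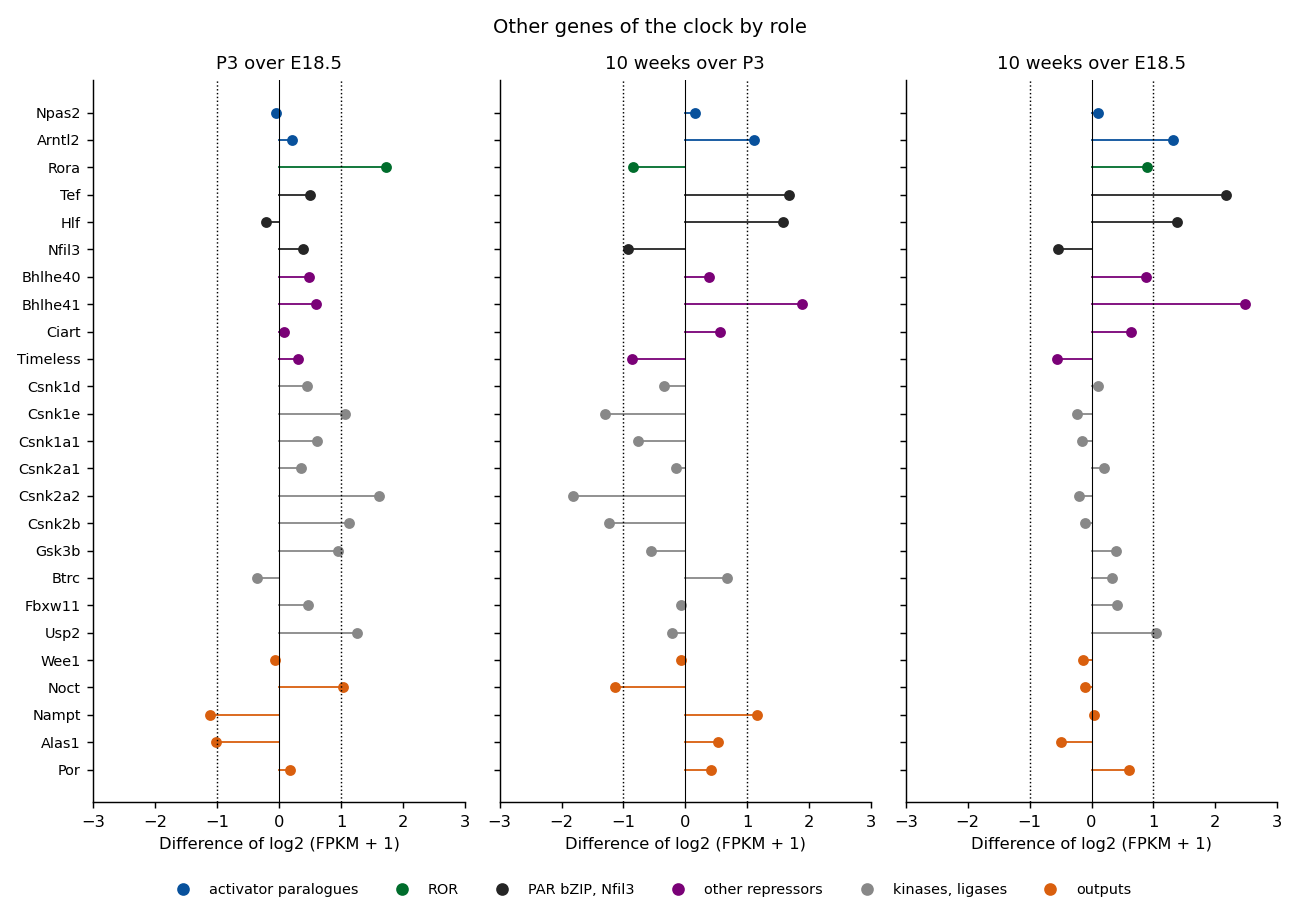
Difference of log2 (FPKM + 1) for 25 of the 27 further clock genes compared, coloured by role, for P3 over E18.5, 10 weeks over P3 and 10 weeks over E18.5; dotted lines mark the 2-fold threshold. In the middle panel Tef, Hlf and Bhlhe41 lie to the right at 1.58 to 1.88, and Csnk1e, Csnk2a2, Csnk2b and Noct to the left at -1.14 to -1.82.

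Genes induced by signals that also act on Per genes were set beside the clock genes. All 8 listed immediate early genes, which cells induce within minutes of a stimulus or of tissue handling, were higher at 10 weeks than at P3 (median 1.89), and 6 of 8 were higher at P3 against E18.5. Fos was at 7.93, 57.9 and 649 FPKM, and Fosb at 0.275, 5.47 and 105 FPKM. Of 10 genes listed for glucocorticoid response, 5 were higher at 10 weeks than at P3 and 0 lower (median 0.93). For P3 over E18.5, 4 were higher and 1 lower. Of all genes, 19.8% were higher and 9.98% lower for 10 weeks over P3, and 9.56% and 9.42% for P3 over E18.5. The list includes the receptor gene Nr3c1, called higher at 10 weeks than at P3 (1.22), a call lost with median-of-ratios scaling (0.99). Tsc22d3, a direct target of the glucocorticoid receptor, was at 34.7, 17.2 and 175 FPKM, and Klf9 at 7.12, 4.64 and 39.5 FPKM. These had the largest differences of the list for 10 weeks over P3. The other 5 were not called, and 3 of them, Ddit4, Mt1 and Mt2, named after their values were seen, had lower values at 10 weeks than at P3. Mt2 was called lower with median-of-ratios (-1.14) and equal-sum scaling (-1.01). The part of these signals in the values of Per1 or of the other clock genes was not tested.

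Markers of other cell types of skin also differed with age, and in bulk tissue a different share of cells and a different level per cell cannot be told apart. The summed FPKM of 7 skeletal muscle markers was 3924 in the embryo, 328 at P3 and 18801 in the adult, that of 6 fat markers 5781, 1761 and 7891, that of 5 immune markers 47.3, 30.0 and 258, and that of 4 endothelial markers 122, 40.6 and 104. Fibroblast markers summed to 3142, 1144 and 3590, and 5 keratinocyte markers to 2805, 10981 and 2065. This sum leaves out Krt1 and Krt10, which had no P3 estimate and were marked there as overfull (HIDATA). At E18.5 and 10 weeks Krt1 was at 3688 and 267 FPKM, and Krt10 at 4499 and 1430 FPKM. No marker summed was at 0. At P3 against E18.5, 7 of 7 muscle, 5 of 5 fibroblast, 4 of 4 endothelial, 5 of 6 fat and 1 of 5 immune markers were lower. Over the same ages 1 of 6 fat and 4 of 5 keratinocyte markers were higher. At 10 weeks against P3, 7 of 7 muscle, 6 of 6 fat and 5 of 5 immune markers were higher. So were 3 of 4 endothelial and 3 of 5 fibroblast markers, and 4 of 5 keratinocyte markers were lower. Of all genes, 9.56% were higher and 9.42% lower for P3 over E18.5, and 19.8% and 9.98% for 10 weeks over P3. The immune marker Cd3e was near 0 at the earlier ages (0.067, 0.082 and 3.78 FPKM). Its call for 10 weeks over P3 was lost with a pseudocount of 5 (0.79). The part of these cells in the clock values was not tested.

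In RefSeq (GRCm38.p6) 7 of the 10 genes overlap another gene, 3 of them a protein-coding one, and the sources used here do not give the strand setting of the counting. Dbp shares 741 bases with Sphk2, a sphingosine kinase gene listed with the same mm9 span, which was at 11.8, 20.0 and 27.5 FPKM. The log2 difference for 10 weeks over P3 was 3.49 for Dbp and 0.44 for Sphk2. For 10 weeks over E18.5 it was 3.41 for Dbp and 1.16 for Sphk2, which was thus called higher, though not with a pseudocount of 5 (0.96) or with upper-quartile (0.88) or median-of-ratios scaling (0.90). Nr1d1 shares 1075 bases with Thra, the thyroid hormone receptor alpha gene, which was at 39.8, 33.1 and 41.1 FPKM and without a call. Uts2, within the span of Per3, was at most at 0.448 FPKM.

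Likeness of course was measured as the Euclidean distance over the log2 differences for P3 over E18.5 and for 10 weeks over P3, among genes of at least 5 FPKM at every age. Nearest to Dbp were Psmb9, a subunit of the immunoproteasome (distance 0.16; 5.01, 5.38 and 71.3 FPKM), the class I antigen presentation gene H2-D1 (0.17; 86.2, 90.5 and 1092 FPKM), which has near-identical relatives, and Scd1, a fatty acid desaturase (0.18; 99.4, 107 and 1223 FPKM). Only 4 of 8290 genes lay within 0.25 of Dbp. Dbp itself, at 2.75 and 2.56 FPKM at E18.5 and P3, was below the minimum set for the other genes. Its log2 difference of 3.49 for 10 weeks over P3 understates its FPKM ratio of 15.2. The added 1 shrank it more than the differences of these more abundant genes, so that the match is to the shrunken course. Nearest to Arntl were Nsf (0.012), Gnai3 (0.012) and Gpn2 (0.027), but 417 of 8289 genes lay within 0.25, so that its course was a common one. These distances rest on 3 ages only.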

How the data were processed

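Trizol was used for extraction and an Illumina TruSeq kit for the libraries (input 1 ug), per the labels' protocols. The deposited values are FPKM averaged by the authors over the replicates of an age, per the file headers. The tools were TopHat2 2.0.7 and Cufflinks 2.1.1, with build mm9, per the submitters' processing notes; the annotation and read numbers are not given in the sources used. FPKM is a share of a library, so that a few abundant genes can move all others.

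Values listed at 0 with a mark of a failed or overfull estimate (3 at E18.5, 7 at P3) were left out. Differences of log2 (FPKM + 1), with a pseudocount of 1, were taken for all genes that reached 1 FPKM at any age. With 1 value per age there was no test; limma, foreseen for replicate columns, was not used. Gene coordinates are the mm9 ones of the tables, with 1 added to starts: of 535 microRNA genes, 228 had a RefSeq length equal to end minus start, and 4 equal to that plus 1. Python 3 with pandas and numpy was used.

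The members and gene lists were chosen with earlier results of these data known, and the ratios between genes were chosen after their values were seen. All members and the genes of the clock lists are named, apart from a few that are not reported here but are in the counts; of the other lists at most 4 past 2-fold per comparison are; and 3 genes nearest to Arntl and to Dbp are. Alternatives were pseudocounts of 0.1 and 5, a minimum of 5 FPKM or none, 3 other scalings (upper quartile, median of ratios, equal sum) and only values marked OK.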

Additional observations from a re-analysis of the deposited data

How the results depend on the processing

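Of 235 values of the 10 clock genes under the alternatives, 230 kept their direction and side of 2-fold, or stayed uncalled. Another 3 lost a call, 2 gained one and 0 called values changed sign. A higher minimum or the limit to values marked OK can only drop a gene, and no minimum can only add genes. The values under those settings were therefore unchanged by construction, and only the pseudocounts and scalings could move a value. Among uncalled differences, that of Cry2 for P3 over E18.5 changed sign (-0.03 with upper-quartile scaling). A pseudocount of 5 left 0 clock genes lower at 10 weeks than at P3, and upper-quartile scaling made 1 lower at 10 weeks than at E18.5 (Cry1, -1.02). The median of the 10 for 10 weeks over P3 fell short of 2-fold with a pseudocount of 5 (0.58), a minimum of 5 FPKM (0.84), and upper-quartile (0.92), median-of-ratios (0.81) and equal-sum scaling (0.91). Of the further clock genes for P3 over E18.5, a pseudocount of 5 gave 3 higher and 0 lower, and upper-quartile scaling 3 higher. For 10 weeks over P3, a pseudocount of 5 gave 2 higher, and median-of-ratios scaling 3 higher and 7 lower; for 10 weeks over E18.5, a pseudocount of 5 gave 2 higher. Over all genes, a pseudocount of 5 gave 842 higher and 626 lower for P3 over E18.5, 1596 and 898 for 10 weeks over P3, and 1274 and 561 for 10 weeks over E18.5; a pseudocount of 0.1 gave 2155 lower for P3 over E18.5. Of all called genes, the share called higher was 50.4% for P3 over E18.5 (37.4% with upper-quartile scaling), 66.6% for 10 weeks over P3 (55.8% with median-of-ratios scaling) and 69.9% for 10 weeks over E18.5 (56.9% with upper-quartile and 58.3% with median-of-ratios scaling). A larger pseudocount shrinks low genes by construction; the cause of the other shifts was not tested. No paired analysis was possible because each age has 1 averaged value, and leaving out a replicate was likewise not possible. Depth is unknown, so the precision of low values such as Per2 and Arntl2 cannot be given.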
